A study of Mus musculus with 16 samples.

Results

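The genes described here encode the heavy chains of major histocompatibility complex (MHC) class I and B2m, the light chain (beta-2-microglobulin) that these heavy chains share. The 9 genes H2-K1, H2-D1, B2m, H2-Q4, H2-Q6, H2-Q7, H2-T22, H2-T23 and H2-M3 were taken by symbol from the 49671 genes in the deposited mouse brain counts, and each symbol matched 1 Ensembl identifier on GRCm38. They were chosen by measured values, since counts of these same libraries had shown class I genes higher after a prenatal injection of lipopolysaccharide (LPS), a bacterial cell wall component that activates innate immunity. Their differences between prenatal injections are therefore given as a description, by values, errors and counts, with no p-value, and nothing is drawn from the counts. The pubertal injection and the interaction of both injections played no part in the choice, and those comparisons were tested. B2m lies on chromosome 2 (122147686 to 122153083, plus strand), and the other 8 lie within the MHC region of chromosome 17, from the start of H2-K1 at 33996017 to the end of H2-M3 at 37274484 (GENCODE M21 on GRCm38); all 9 are annotated as protein-coding. All 9 genes passed the filter on low counts, which left 18875 genes.

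The study asked how immune activation before birth and at puberty affects the brain of C57BL/6 mice. Pregnant dams received LPS or saline into the peritoneum on gestation day 16, their male offspring received LPS or saline the same way on postnatal day 30, and whole brains were collected on postnatal day 32. Each library came from the brain of 1 mouse, and there were 4 libraries in each of 4 groups. LPS-LPS mice had LPS at both times, LPS-saline mice had prenatal LPS and pubertal saline, saline-LPS mice had prenatal saline and pubertal LPS, and saline-saline mice had saline at both times. The first word of each group name was read as the dam's injection and the second as the offspring's. If the names ran the other way, prenatal and pubertal would change places and the interaction would stay as it is. The litters of the mice are not given, so mice of 1 group may share a dam, and p-values measure the spread between mice. The sources used here do not give the dose.

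Class I molecules display short peptides on the cell surface. A heavy chain folds with B2m and a peptide that the TAP transporter has moved into the endoplasmic reticulum, and CD8 T cells and natural killer cells read the complex. H2-K1 and H2-D1 encode the classical class I molecules of C57BL/6 mice. The H2-Q, H2-T and H2-M genes encode less variable, non-classical molecules. Interferons raise transcription of these genes through a shared upstream region, where an NF-kappaB site lies beside an interferon-stimulated response element (ISRE). In the brain, class I is found on endothelium and microglia and, at lower levels, on neurons, where it has also been linked to the remodelling of synapses.

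The libraries held 25729919 to 38571036 gene-assigned reads. Reads a library ran from 6 to 138 for H2-Q6, 11 to 132 for H2-Q7, 60 to 113 for H2-M3 and 84 to 273 for H2-Q4. The other genes among the 9 had more reads than these in every library. LPS-LPS replicate 3 had 502.7 CPM (counts per 1000000 gene-assigned reads, scaled by the TMM normalization) of Xist and no count of the Y-linked gene Ddx3y, although all mice were described as male. The main results that use the LPS-LPS group are therefore also given without it. Gabra6, a receptor subunit gene of cerebellar granule cells, was under 1 CPM in 8 libraries and between 2.503 and 70.36 CPM in the other 8. Both kinds of library occurred in every group. The pituitary gene Gh stood at 502.1 CPM in replicate 1 of LPS-LPS and at 44.1 CPM in replicate 1 of saline-LPS. The rank correlation between a gene's exonic length and its deviation in a library ran from -0.27 to -0.02 in the 8 prenatal LPS libraries and from -0.06 to 0.18 in the 8 prenatal saline libraries.

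The upstream regions show what the members share beyond the protein fold. RefSeq promoters (250 bases before to 50 after the start, build GRCm38.p6) were found for all 9 genes. They were searched on both strands for an NF-kappaB motif, for an ISRE-like motif (GAANNGAAA or AAANNGAAA), for TGACG and for ATTGG. The 200 bases before the start of H2-K1 on the minus strand, chr17:34000348-34000547, and of B2m on the plus strand, chr2:122147487-122147686, are shown whole because these genes carry the classical heavy chain and the light chain. Capitals mark every match on either strand, and adjoining or overlapping matches run together.
H2-K1: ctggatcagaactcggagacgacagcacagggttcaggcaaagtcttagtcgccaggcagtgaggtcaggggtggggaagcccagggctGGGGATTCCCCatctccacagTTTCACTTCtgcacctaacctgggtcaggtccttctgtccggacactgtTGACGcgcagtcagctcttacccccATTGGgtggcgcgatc
B2m: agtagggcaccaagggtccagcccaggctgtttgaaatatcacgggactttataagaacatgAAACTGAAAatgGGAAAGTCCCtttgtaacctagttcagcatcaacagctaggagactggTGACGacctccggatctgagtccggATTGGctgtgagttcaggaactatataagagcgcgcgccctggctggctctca

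Both regions carry all 4 motifs, but in H2-K1 the NF-kappaB match lies upstream of the ISRE-like match and in B2m the order is turned round. For the other genes, the stretch around the same matches is shown, so that the conserved core can be read across the family. These are H2-D1 (plus strand, chr17:35262917-35262958), H2-Q4 (plus, chr17:35379437-35379478), H2-Q6 (plus, chr17:35424671-35424712), H2-Q7 (plus, chr17:35439016-35439056), H2-T22 (minus, chr17:36042919-36042961), H2-M3 (plus, chr17:37270102-37270147) and H2-T23 (minus, chr17:36032811-36032851).
H2-D1: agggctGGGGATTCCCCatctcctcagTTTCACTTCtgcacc
H2-Q4: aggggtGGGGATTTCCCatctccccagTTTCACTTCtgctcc
H2-Q6: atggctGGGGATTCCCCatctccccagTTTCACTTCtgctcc
H2-Q7: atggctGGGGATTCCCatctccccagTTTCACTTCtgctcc
H2-T22: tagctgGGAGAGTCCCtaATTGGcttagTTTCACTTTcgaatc
H2-M3: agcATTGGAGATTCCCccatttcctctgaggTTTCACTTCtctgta
H2-T23: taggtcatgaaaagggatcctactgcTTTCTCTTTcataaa

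The NF-kappaB and ISRE-like motifs were both present in the promoters of 8 of the 9 genes, and H2-T23 held the ISRE-like motif without the NF-kappaB motif. Among all 32851 promoters of the same length, 8.46% held the NF-kappaB motif, 16.5% the ISRE-like motif and 1.04% both. TGACG occurred in 20.8% and ATTGG in 37.4% of all promoters. H2-K1, H2-D1 and H2-Q6 have the same 11 letters in capitals at the NF-kappaB match. A match is a description of the letters, and binding of a factor was not measured.

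H2-K1, whose product presents peptides to CD8 T cells, was higher in both prenatal LPS groups, 2.01-fold averaged over the pubertal injection. It had 77.0, 71.2, 69.5 and 55.9 CPM in LPS-LPS brains and 75.9, 73.8, 53.8 and 50.5 CPM in LPS-saline brains, against 34.8, 35.3, 32.1 and 29.1 CPM in saline-LPS brains and 31.8, 38.1, 30.5 and 31.3 CPM in saline-saline brains. The lowest prenatal LPS library lay above the highest prenatal saline library, and the spread within the prenatal LPS groups was wider. The log2 fold change for prenatal LPS was 1.06 ± 0.13 (SE) among mice given pubertal LPS and 0.95 ± 0.13 among mice given pubertal saline. Averaged over the pubertal injection it was 1.00 ± 0.09.

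H2-D1, the other classical heavy chain, was higher by a smaller factor. It had 81.4, 71.5, 83.1 and 71.2 CPM in LPS-LPS brains and 80.3, 74.1, 68.2 and 74.2 CPM in LPS-saline brains, against 41.0, 42.9, 51.8 and 46.4 CPM in saline-LPS brains and 40.5, 45.1, 45.6 and 55.4 CPM in saline-saline brains. No prenatal LPS library overlapped a prenatal saline library. Averaged over the pubertal injection, the log2 fold change was 0.71 ± 0.06 (SE), or 1.64-fold.

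B2m, the light chain without which most heavy chains do not reach the cell surface, was higher as well. It had 96.6, 96.3, 96.4 and 81.1 CPM in LPS-LPS brains and 93.7, 91.9, 83.9 and 77.1 CPM in LPS-saline brains, against 58.4, 53.6, 61.4 and 62.8 CPM in saline-LPS brains and 60.2, 60.6, 54.8 and 57.5 CPM in saline-saline brains. The groups of the 2 prenatal injections were far apart, and LPS-LPS replicate 4 was the lowest of its group. The log2 fold change averaged over the pubertal injection was 0.61 ± 0.05 (SE), or 1.53-fold.

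**Figure D1:**
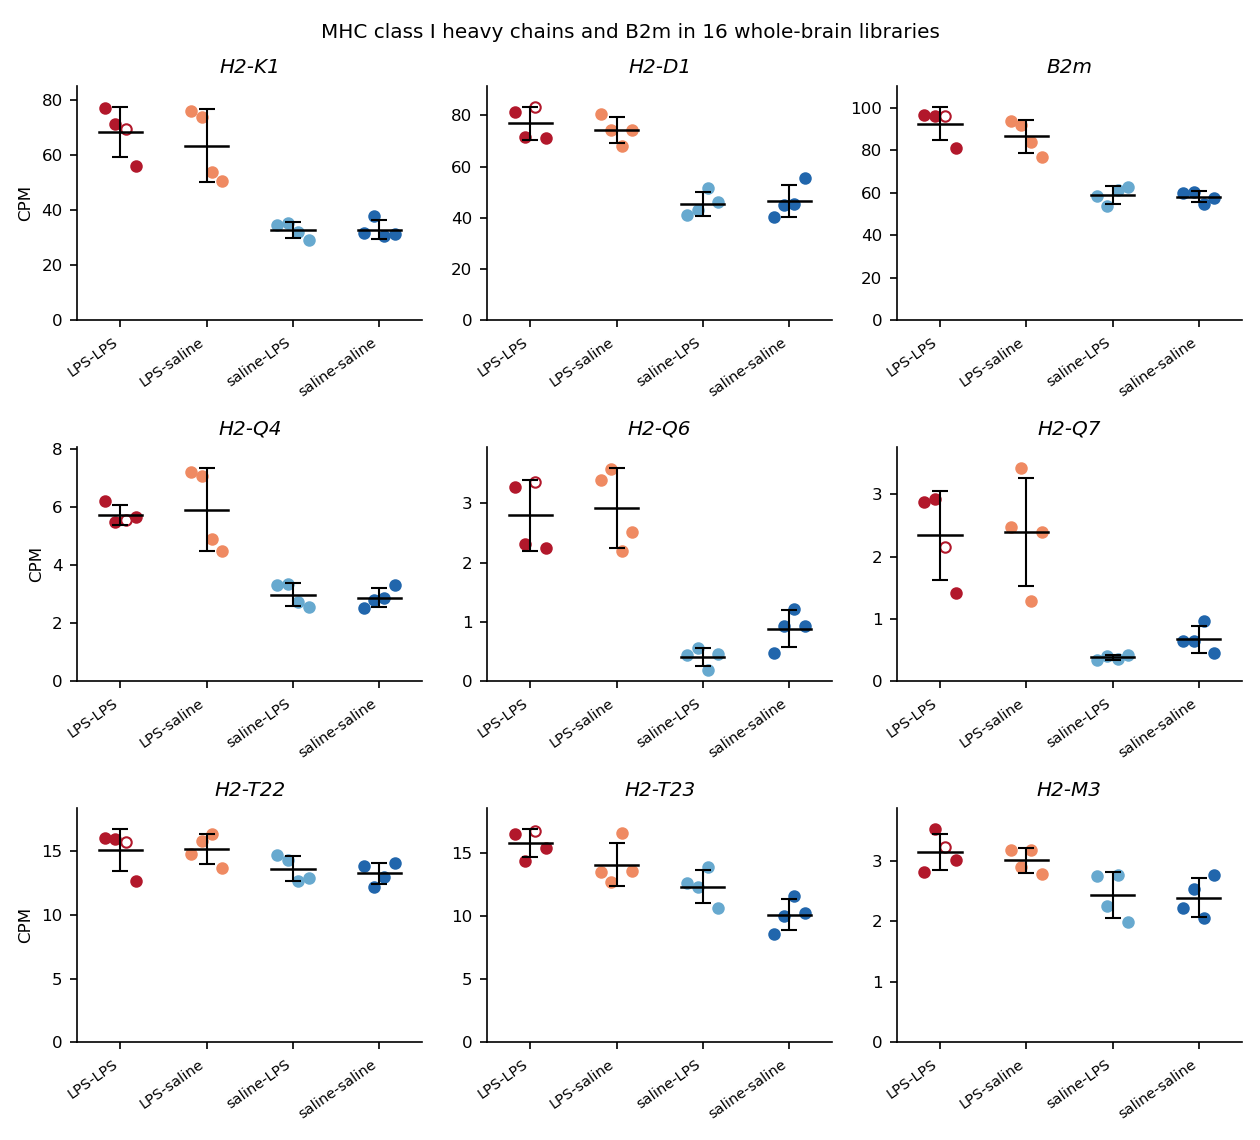
Level of each of the 9 genes in CPM (y axis, starting at 0 and scaled per gene) in the 16 libraries, by group (x axis); points are libraries, the open point is LPS-LPS replicate 3, and bars give the mean ± SD of 4 libraries. H2-K1 lies between 50.5 and 77.0 CPM in the prenatal LPS libraries and between 29.1 and 38.1 CPM in the prenatal saline libraries, while H2-T22 overlaps between them.

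The H2-Q genes had far fewer reads than the classical genes, and H2-Q6 and H2-Q7 had the largest ratios of the 9. H2-Q4, which encodes Qb-1, had 6.21, 5.46, 5.56 and 5.65 CPM in LPS-LPS brains and 7.18, 7.07, 4.90 and 4.48 CPM in LPS-saline brains, against 3.31, 3.34, 2.73 and 2.57 CPM in saline-LPS brains and 2.51, 2.80, 2.88 and 3.31 CPM in saline-saline brains. Its averaged log2 fold change for prenatal LPS was 0.99 ± 0.11 (SE), close to that of H2-K1, and the groups did not overlap.

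H2-Q6 and H2-Q7 encode Qa-2, a non-classical molecule of which part is anchored by a lipid. H2-Q6 had 3.26, 2.30, 3.35 and 2.25 CPM in LPS-LPS brains and 3.39, 3.57, 2.20 and 2.51 CPM in LPS-saline brains, against 0.437, 0.563, 0.195 and 0.460 CPM in saline-LPS brains and 0.481, 0.925, 1.22 and 0.931 CPM in saline-saline brains. The saline-LPS values rest on 6 to 15 reads a library and the saline-saline values on 18 to 44. The log2 fold change for prenatal LPS was 2.76 ± 0.29 (SE) among mice given pubertal LPS and 1.72 ± 0.26 among mice given pubertal saline.

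H2-Q7 had 2.88, 2.93, 2.15 and 1.42 CPM in LPS-LPS brains and 2.47, 3.42, 1.30 and 2.39 CPM in LPS-saline brains, against 0.344, 0.413, 0.357 and 0.429 CPM in saline-LPS brains and 0.641, 0.656, 0.970 and 0.450 CPM in saline-saline brains. Every prenatal LPS library was above every prenatal saline library, with a narrow gap between LPS-saline replicate 3 and saline-saline replicate 3. Its log2 fold change was 2.60 ± 0.32 (SE) before pubertal LPS and 1.81 ± 0.29 before pubertal saline. Averaged over the pubertal injection, the fold differences were 4.71 for H2-Q6 and 4.596 for H2-Q7.

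Reads of the H2-Q genes can come from more than one of them. The coding sequences of H2-Q6 and H2-Q7 are 95.4% identical over 978 aligned bases. The stretch from base 91 to base 210 of the coding sequence (chromosome 17, from the GENCODE M21 annotation) is shown for 5 of the heavy chains, to show letter by letter how these genes differ; capitals in the lower 4 lines mark bases that differ from H2-Q7.
H2-Q7: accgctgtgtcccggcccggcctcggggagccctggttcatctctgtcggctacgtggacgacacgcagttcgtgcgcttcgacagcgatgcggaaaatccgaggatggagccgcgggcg
H2-Q6: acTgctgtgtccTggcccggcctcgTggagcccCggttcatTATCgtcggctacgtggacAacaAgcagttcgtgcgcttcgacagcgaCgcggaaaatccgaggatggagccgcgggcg
H2-Q4: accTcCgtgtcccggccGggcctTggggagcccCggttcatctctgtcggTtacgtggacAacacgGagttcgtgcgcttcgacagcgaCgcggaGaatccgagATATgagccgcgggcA
H2-K1: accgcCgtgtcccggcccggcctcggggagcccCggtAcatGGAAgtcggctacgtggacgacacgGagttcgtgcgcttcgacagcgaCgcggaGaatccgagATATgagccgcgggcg
H2-D1: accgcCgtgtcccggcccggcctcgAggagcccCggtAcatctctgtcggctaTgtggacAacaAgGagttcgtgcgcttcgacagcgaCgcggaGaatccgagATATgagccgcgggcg

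In this stretch of 120 bases H2-Q6 differs from H2-Q7 at 11 positions, H2-Q4 at 15, and H2-K1 and H2-D1 at 14 each. Of all 100-base words in the representative transcript of H2-Q7, 21.9% also occur in the transcript of another gene. As shares of all its words, 11.9% occur in H2-Q6 and 10% in H2-Q5. The share of words found in another gene was 13% for H2-Q6 and 13.9% for H2-Q4, whose main partner is the overlapping gene Gm11131. It was 4.64% for H2-D1 and 0 for H2-K1, B2m and H2-M3. H2-T22 shared 14.2% of its words, 9.81% with H2-T10, and H2-T23 shared 7.28%. Reads with more than 1 best alignment are counted apart by the deposited counts, so the levels of the H2-Q genes leave such reads out, and how the remaining reads were split between H2-Q6 and H2-Q7 is uncertain. Gm11131 overlaps 496 exonic bases of H2-Q4 on the opposite strand, and A930015D03Rik overlaps 1003 exonic bases of H2-T22. The sources used here do not say whether counting used the strand, so reads of these partners cannot be told apart.

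The remaining non-classical genes differed less between prenatal injections. H2-T23, which encodes Qa-1, a molecule read by inhibitory receptors of natural killer cells, had 16.5, 14.4, 16.7 and 15.4 CPM in LPS-LPS brains and 13.5, 12.7, 16.5 and 13.6 CPM in LPS-saline brains, against 12.6, 12.3, 13.9 and 10.6 CPM in saline-LPS brains and 8.57, 9.96, 11.6 and 10.2 CPM in saline-saline brains. Within each pubertal injection the groups did not overlap, but LPS-saline and saline-LPS did. The averaged log2 fold change was 0.42 ± 0.07 (SE).

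H2-M3 presents peptides that begin with N-formyl methionine. It had 2.82, 3.52, 3.22 and 3.01 CPM in LPS-LPS brains and 3.18, 2.90, 3.19 and 2.78 CPM in LPS-saline brains, against 2.75, 2.25, 2.76 and 1.99 CPM in saline-LPS brains and 2.22, 2.54, 2.05 and 2.76 CPM in saline-saline brains. The prenatal LPS libraries lay above the prenatal saline libraries by a small margin, with an averaged log2 fold change of 0.35 ± 0.10 (SE).

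H2-T22 is bound by some gamma-delta T cell receptors. It had 16.0, 15.9, 15.7 and 12.6 CPM in LPS-LPS brains and 14.8, 15.7, 16.3 and 13.6 CPM in LPS-saline brains, against 14.7, 14.3, 12.6 and 12.9 CPM in saline-LPS brains and 13.8, 12.2, 12.97 and 14.0 CPM in saline-saline brains. These values overlapped, and the averaged log2 fold change of 0.17 ± 0.06 (SE) was the smallest of the 9.

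The counts in this comparison follow from how the genes were chosen and only describe them. At a threshold of 0.05 on the p of edgeR's quasi-likelihood test, adjusted over all genes by Benjamini and Hochberg, 6 of the 9 genes were called higher among mice given pubertal LPS, where 0.562% of all tested genes were called higher. The same number was called among mice given pubertal saline, where the share over all genes was 0.148%. The 6 genes were H2-K1, H2-D1, B2m, H2-Q4, H2-Q6 and H2-Q7 both times. Averaged over the pubertal injection, 8 of 9 were called higher, all but H2-T22, against 4.9% of all genes. In each single comparison 8 of 9 genes had groups that did not overlap, against 4.95% of all genes before pubertal LPS and 5.17% before pubertal saline. Over the averaged injections it was 7 of 9, against 0.747%. The median log2 fold change of the 9 genes was 0.75 before pubertal LPS, 0.67 before pubertal saline and 0.71 averaged, and over all tested genes it was -0.01, 0.00 and -0.01 in the same comparisons. With the replicate number as a block, H2-T23 was called as well in both single comparisons, 7 of 9. Over all genes the block gave 326 calls before pubertal LPS and 409 before pubertal saline. Without saline-saline replicate 4, H2-Q7 was no longer called before pubertal saline, and the averaged call of H2-M3 was lost in 11 of the 16 fits that left out a library.

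**Figure D2:**
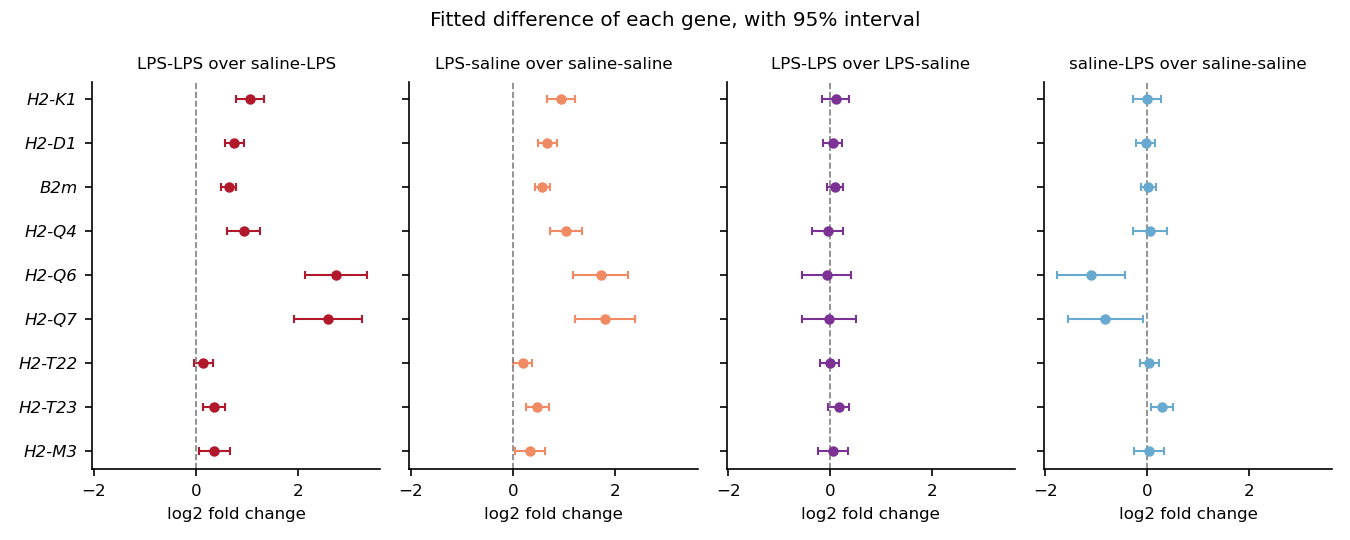
Log2 fold change (x axis) of each of the 9 genes (rows) with its 95% confidence interval, for prenatal LPS before pubertal LPS and before pubertal saline (left 2 panels) and for pubertal LPS after prenatal LPS and after prenatal saline (right 2 panels); the dashed line marks no difference. Prenatal estimates run from 0.15 to 2.76, and the pubertal estimates after prenatal saline include H2-Q6 at -1.10 and H2-Q7 at -0.82.

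The log2 fold changes were also computed without LPS-LPS replicate 3. Without it, the log2 fold changes before pubertal LPS were 1.05 for H2-K1, 0.715 for H2-D1, 0.63 for B2m, 0.95 for H2-Q4, 2.66 for H2-Q6, 2.64 for H2-Q7, 0.13 for H2-T22, 0.32 for H2-T23 and 0.35 for H2-M3. The mean of H2-K1 in LPS-LPS brains was 68.1 ± 10.9 CPM (SD, n = 3) without that library and 68.4 ± 8.93 CPM (SD, n = 4) with it. Averaged over the pubertal injection, H2-M3 was no longer called, which left 7 of 9. Without replicate 1 of LPS-LPS, which had the highest Gh, the averaged value was 0.97 for H2-K1 and 0.60 for B2m, and without replicate 1 of saline-LPS it was 1.02 for H2-K1 and 0.61 for B2m. A correction for exonic length and GC content gave averaged values of 0.96 for H2-K1, 0.64 for H2-D1, 0.61 for B2m, 0.94 for H2-Q4, 2.17 for H2-Q6, 2.19 for H2-Q7, 0.37 for H2-T23 and 0.31 for H2-M3, the last of which was again not called.

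H2-K1 and B2m were higher after prenatal LPS on either side of the Gabra6 split. Among libraries under 1 CPM of Gabra6, H2-K1 had 71.2 to 75.9 CPM in 3 prenatal LPS libraries, against 30.5 to 38.1 CPM in 5 prenatal saline libraries. Among the others it had 50.5 to 77.0 CPM in 5 prenatal LPS libraries, against 29.1 to 32.1 CPM in 3 prenatal saline libraries. B2m had 91.9 to 96.3 CPM against 53.6 to 60.6 CPM on the first side, and 77.1 to 96.6 CPM against 57.5 to 62.8 CPM on the second. Averaged log2 fold changes under 1 CPM and at 1 CPM or more were 1.09 and 0.94 for H2-K1, 0.79 and 0.52 for H2-D1, 0.72 and 0.52 for B2m and 2.10 and 2.24 for H2-Q6. Within single comparisons the sides differed more for some genes. Before pubertal LPS, H2-Q6 had 2.20 under 1 CPM and 3.14 at 1 CPM or more, and H2-Q4 had 0.71 and 1.13. Before pubertal saline, H2-Q6 had 1.99 and 1.34, and H2-Q4 had 1.38 and 0.52. Among the libraries under 1 CPM, LPS-LPS is represented by 1 library. Among the libraries at 1 CPM or more, saline-saline is represented by 1 library, assumed to vary like the others, and 0 of 9 genes were called before pubertal saline.

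The pubertal injection, 2 days before collection, was tested in the same way, and none of the 9 genes was called. Among mice with prenatal saline, where 0% of all genes were called, 3 of the 9 had an unadjusted p under 0.05. Among mice with prenatal LPS the share of all genes called was 0% and none of the 9 had an unadjusted p under 0.05. Averaged over the prenatal injection it was 0% as well, with 2 of the 9. DESeq2 also called none of the 9. Over all genes, 535 had an unadjusted p under 0.05 after prenatal saline, 756 after prenatal LPS and 947 averaged, and DESeq2 called 0, 9 and 0 genes in these comparisons.

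H2-K1 hardly differed after the pubertal injection in mice with prenatal saline, with a log2 fold change of -0.01 and a 95% confidence interval from -0.28 to 0.27. After prenatal LPS it was 0.11, with an interval from -0.16 to 0.38. B2m gave 0.02 (interval -0.13 to 0.17) after prenatal saline and 0.10 (interval -0.05 to 0.24) after prenatal LPS. H2-D1 gave -0.03 (interval -0.22 to 0.15) after prenatal saline and 0.05 (interval -0.13 to 0.23) after prenatal LPS. These intervals do not show that pubertal LPS had no effect.

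The widest pubertal differences were in the H2-Q genes after prenatal saline, where saline-LPS brains had less H2-Q6 than saline-saline brains at 50 against 122 reads summed over 4 libraries. The log2 fold change was -1.10 (interval -1.77 to -0.43; adjusted p = 1.00 in edgeR's quasi-likelihood test), with saline-LPS replicate 2 above saline-saline replicate 1. H2-Q7 gave -0.82 (interval -1.57 to -0.08; adjusted p = 1.00 in the same edgeR test), with all 4 saline-LPS libraries below all 4 saline-saline libraries. Neither passed the adjustment over all genes. After prenatal LPS the same genes gave -0.06 (interval -0.54 to 0.42) and -0.03 (interval -0.56 to 0.50). Without LPS-LPS replicate 3, the values after prenatal LPS were 0.10 for H2-K1, 0.08 for B2m, -0.16 for H2-Q6 and 0.01 for H2-Q7.

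H2-T23 moved the other way, with a log2 fold change of 0.29 (interval 0.07 to 0.51) after prenatal saline and 0.16 (interval -0.05 to 0.38) after prenatal LPS. Averaged over the prenatal injection it was 0.23 (interval 0.07 to 0.38; adjusted p = 0.908 in edgeR's quasi-likelihood test). It had the largest positive pubertal estimate of the 9, and it did not pass the adjustment.

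The interaction asks whether the pubertal difference depends on the prenatal injection, and 0% of all genes and 0 of the 9 were called. At an unadjusted p under 0.05 there were 402 of all genes and 1 of the 9, and DESeq2 called 1 gene, which was not among the 9. H2-Q6 had the largest interaction, 1.04 on the log2 scale (interval 0.21 to 1.86; adjusted p = 1.00 in edgeR's quasi-likelihood test), and H2-Q7 had 0.79 (interval -0.12 to 1.70). It was 0.11 for H2-K1 (interval -0.27 to 0.50), 0.08 for H2-D1 (interval -0.17 to 0.34) and 0.08 for B2m (interval -0.14 to 0.29). Without LPS-LPS replicate 3 the H2-Q6 interaction was 0.94 and that of H2-K1 was 0.11. The H2-Q6 interaction was 0.21 within libraries under 1 CPM of Gabra6, with 1 LPS-LPS library, and 1.81 within those at 1 CPM or more, with 1 saline-saline library.

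Per kilobase of exons, B2m was the most abundant of the 9 transcripts. In saline-saline brains it had 67.8 ± 3.10 CPM per kilobase (SD, n = 4), followed by H2-D1 with 18.1 ± 2.42, H2-K1 with 11.2 ± 1.18, H2-T22 with 3.88 ± 0.24, H2-T23 with 3.49 ± 0.42, H2-M3 with 1.66 ± 0.22, H2-Q4 with 1.11 ± 0.13, H2-Q6 with 0.426 ± 0.15 and H2-Q7 with 0.159 ± 0.05. H2-T22 and H2-T23 overlapped over the 4 libraries, and every other neighbour in this order was apart. Exonic length was the union of a gene's transcripts, 4265 bases for H2-Q7, although its representative transcript has 1497. It was likewise 2938 against 1619 for H2-K1, 3414 against 1761 for H2-T22 and 2889 against 1472 for H2-T23. H2-D1 had 2579 against 2102, and H2-Q4 had 2596 against 1793. For B2m, H2-Q6 and H2-M3 both lengths were the same. Where the lengths differ, the level per kilobase is set low by that choice. The order given here and the heavy chain sums, shares and ratios below depend on it.

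Heavy chains and light chain were higher together. The 8 heavy chains summed to 69.2 ± 5.96 CPM per kilobase in LPS-LPS brains and 66.0 ± 6.61 in LPS-saline brains, against 40.2 ± 1.90 in saline-LPS brains and 40.0 ± 2.97 in saline-saline brains (SD, n = 4 each). B2m on the same scale was 107.7 ± 8.90 in LPS-LPS brains and 100.8 ± 8.95 in LPS-saline brains, against 68.7 ± 4.74 in saline-LPS brains and 67.8 ± 3.10 in saline-saline brains. The ratio of the heavy chain sum to B2m was 0.643 ± 0.03 in LPS-LPS brains and 0.655 ± 0.02 in LPS-saline brains, against 0.588 ± 0.05 in saline-LPS brains and 0.592 ± 0.06 in saline-saline brains. The ranges of this ratio overlapped between the prenatal injections. Without LPS-LPS replicate 3, that group had a heavy chain sum of 68.0 ± 6.71 CPM per kilobase, B2m at 106.2 ± 10.3 and a ratio of 0.641 ± 0.03 (SD, n = 3).

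**Figure D3:**
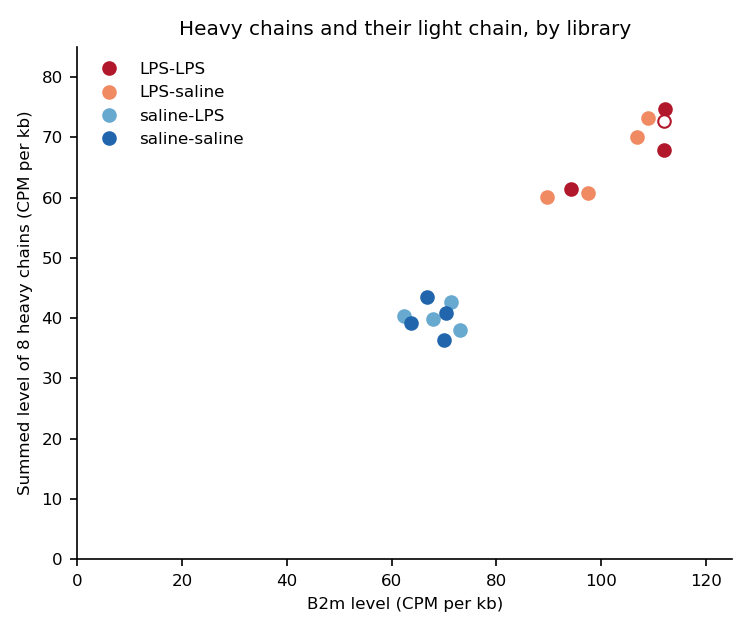
Summed level of the 8 heavy chains (y axis) against the level of B2m (x axis), both in CPM per kilobase of exons and from 0, with 1 point for each of 16 libraries coloured by group; the open point is LPS-LPS replicate 3. The prenatal LPS libraries lie at heavy chain sums of 60.1 to 74.8 and the prenatal saline libraries at 36.4 to 43.5.

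H2-K1 had a larger mean share of the heavy chain sum after prenatal LPS, and H2-T22 a smaller one. H2-K1 made up 33.6% ± 2.18 of the sum in LPS-LPS brains and 32.5% ± 3.64 in LPS-saline brains, against 27.8% ± 2.28 in saline-LPS brains and 28.1% ± 3.22 in saline-saline brains (SD, n = 4 each). Its shares did not overlap among mice given pubertal LPS and overlapped among mice given pubertal saline. H2-D1 made up 43.1% ± 1.92 in LPS-LPS brains and 43.8% ± 2.97 in LPS-saline brains, against 43.9% ± 3.85 in saline-LPS brains and 45.1% ± 3.01 in saline-saline brains, within the spread of the groups. H2-T22 made up 6.37% ± 0.35 in LPS-LPS brains and 6.75% ± 0.81 in LPS-saline brains, against 9.94% ± 0.91 in saline-LPS brains and 9.74% ± 0.98 in saline-saline brains. Its own level overlapped between groups, so its smaller share goes with the larger sum. H2-Q6 made up 1.92% ± 0.27 in LPS-LPS brains and 2.10% ± 0.30 in LPS-saline brains, against 0.499% ± 0.20 in saline-LPS brains and 1.06% ± 0.35 in saline-saline brains, so its large ratio concerns a small part of the pool. Without LPS-LPS replicate 3, the shares in that group were 33.9% ± 2.53 for H2-K1, 42.7% ± 2.13 for H2-D1, 6.39% ± 0.42 for H2-T22 and 1.83% ± 0.24 for H2-Q6 (SD, n = 3).

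Within groups, the 9 genes varied together in part. The Pearson correlation of log2 CPM deviations from the group means over 16 libraries, which share a brain dissection, a library and its depth within each point, ran from -0.41 to 0.73 over the 36 pairs, with a median of 0.23, and without LPS-LPS replicate 3 from -0.41 to 0.74, with a median of 0.22. H2-K1 went most closely with H2-Q4 (0.73) and B2m (0.64), and less so with H2-D1 (0.15). H2-T23 and H2-M3 were near or below 0 with the H2-Q6 and H2-Q7 genes. Over levels, which also hold the group differences by which the genes were chosen, the correlations ran from 0.53 to 0.96.

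**Figure D4:**
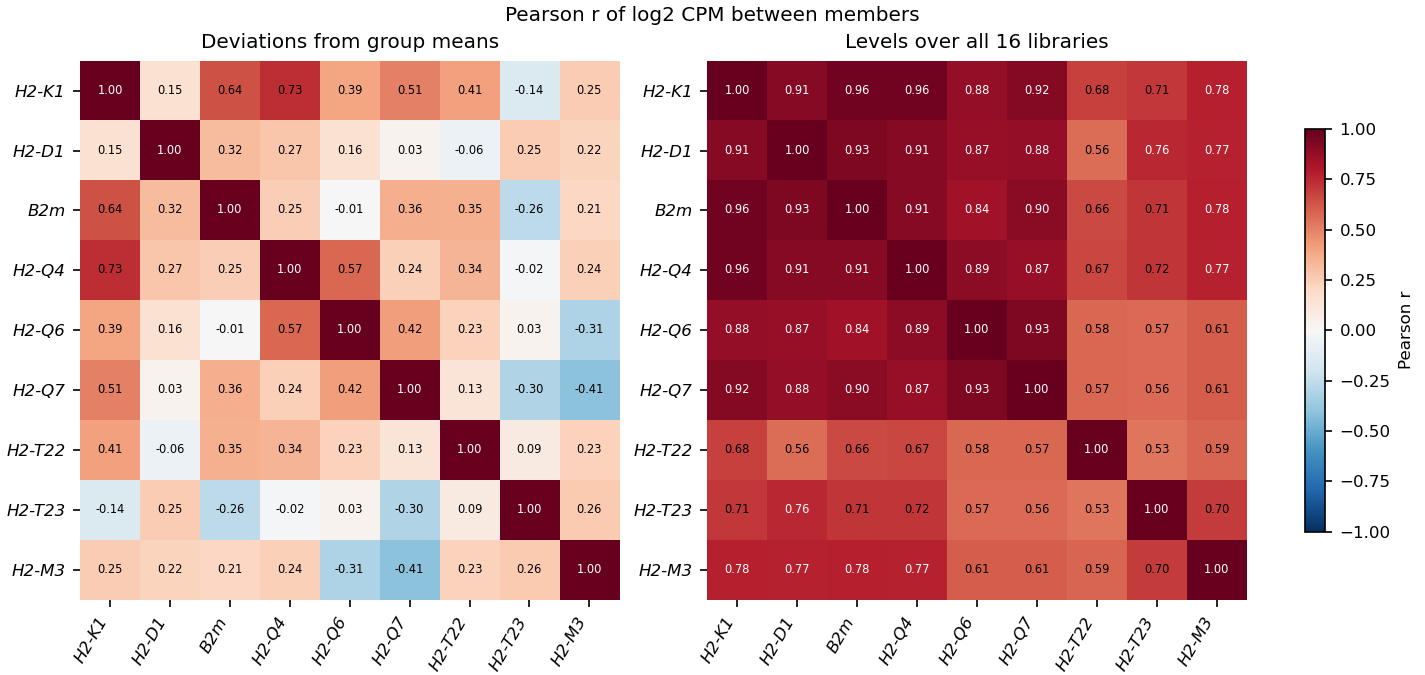
Pearson r of log2 CPM between the 9 genes over 16 libraries, as deviations from group means (left) and as levels (right), coloured from -1 to 1. The left panel runs from -0.41 to 0.73 and the right panel from 0.53 to 0.96.

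Genes outside the family with a pattern like that of H2-K1 or B2m within groups were looked up by the same measure. Of 13855 protein-coding genes with a mean of at least 1 CPM, those with the highest correlation of deviations with H2-K1 were Alox12 (0.93), C4b (0.92), Inpp5k (0.91), Lgals3bp (0.90) and LTO1 (0.90). C4b encodes complement component C4, and Lgals3bp encodes a secreted galectin-binding protein. For B2m they were Ddx60 (0.90), Chmp1b (0.89), Traf2 (0.86), Hjurp (0.85) and Mroh2a (0.83). These values describe 16 libraries and were picked as the highest of all these genes. They moved by less than 0.01 when LPS-LPS replicate 3 was left out of the correlation, with its group mean still including it.

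The rest of the class I pathway was counted from lists of 78 genes that are not among the 9, of which 57 could be tested. The lists were drawn up with earlier results of these data known. Their prenatal counts and p-values therefore describe these genes and are not separate evidence of a class I difference. Averaged over the pubertal injection, 5 of 57 (8.77%) rose after prenatal LPS and none fell, against 4.9% of all tested genes called higher. The median log2 fold change over these genes was 0.06 and over all tested genes -0.01. Blocking on the replicate number gave 9 calls, but calls over all 18875 genes, in either direction, rose as well, from 1476 to 2495. Without LPS-LPS replicate 3 or without LPS-saline replicate 1 there were 3, and without LPS-saline replicate 4 there were 9. Over all genes these fits called 736, 700 and 1567. Unless another fit is named, the lists and genes below are given from the edgeR fit without the block.

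The immunoproteasome, a form of the proteasome that cuts peptides suited to class I, had 3 of 5 genes called higher averaged over the pubertal injection. Over all tested genes the share called higher was 4.9%. Psmb9, a catalytic subunit, averaged 2.39 ± 0.50 CPM in LPS-LPS brains and 2.07 ± 0.29 CPM in LPS-saline brains, against 1.26 ± 0.18 CPM in saline-LPS brains and 1.46 ± 0.45 CPM in saline-saline brains (SD, n = 4 each). Its averaged log2 fold change was 0.72 ± 0.15 (SE; adjusted p = 0.00612 in edgeR's quasi-likelihood test). Psmb8, another catalytic subunit, rose by 0.65 ± 0.16 (adjusted p = 0.0207 in the same edgeR test), and Psme1, a subunit of the PA28 activator, by 0.25 ± 0.05 (adjusted p = 0.0089, edgeR). Psmb10, the catalytic subunit that is most abundant here, had 0.18 ± 0.06 and missed the threshold (adjusted p = 0.0615, edgeR).

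Among 8 genes of peptide transport, loading and trimming, Tap2 alone was called higher in the averaged comparison without the block, against 4.9% of all tested genes. It encodes a subunit of the TAP transporter, and averaged 4.603 ± 0.49 CPM in LPS-LPS brains and 4.86 ± 0.45 CPM in LPS-saline brains, against 3.76 ± 0.42 CPM in saline-LPS brains and 3.58 ± 0.39 CPM in saline-saline brains (SD, n = 4 each). Its log2 fold change was 0.37 ± 0.09 (SE; adjusted p = 0.0148 in edgeR's quasi-likelihood test). Its partner Tap1 had a larger estimate, 0.44 ± 0.17, with more spread (adjusted p = 0.112, edgeR). Tapbp, which encodes tapasin, had 0.19 ± 0.06 (adjusted p = 0.0576, edgeR).

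Of 16 regulators, Irf8 alone was called higher averaged over the pubertal injection without the block, a count near the 4.9% of all tested genes. Irf8, a transcription factor of myeloid cells, microglia among them, had 7.53 ± 0.99 CPM in LPS-LPS brains and 6.93 ± 1.11 CPM in LPS-saline brains, against 5.60 ± 0.75 CPM in saline-LPS brains and 5.76 ± 1.01 CPM in saline-saline brains (SD, n = 4 each). Its log2 fold change was 0.35 ± 0.10 (SE; adjusted p = 0.036 in edgeR's quasi-likelihood test). Nlrc5, the transactivator of class I genes, had 0.44 ± 0.18 (adjusted p = 0.152, edgeR). Irf1, an interferon-pathway transcription factor, had 0.24 ± 0.11 (adjusted p = 0.213, edgeR). A p that misses the threshold does not show that these genes were alike in the groups.

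None was called of 12 tested genes for other class I and class I-like molecules, with log2 fold changes from -0.18 to 0.39 and a median of 0.09. The same held for 7 interferon receptor genes and their kinases, 7 MHC class II genes and the 2 receptors of class I that could be tested. The 4 interferon genes listed had too few reads for a test. At an unadjusted p under 0.05 there were 2 of the 12 other class I genes, 1 of the 7 receptor and kinase genes, 0 of the class II genes and 1 of the 2 class I receptors. Over all tested genes it was 4379 of 18875 in this averaged comparison.

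Within single pubertal injections fewer of the 57 passed. Before pubertal LPS, Psmb9 rose by 0.92 ± 0.21 on the log2 scale (SE; adjusted p = 0.0438 in edgeR's quasi-likelihood test), 1 of 57 (1.75%) against 0.562% of all genes. This call was lost in 14 of the 16 fits that left out a library, among them the fit without LPS-LPS replicate 3. Before pubertal saline none was called by edgeR, 6 had an unadjusted p under 0.05 and DESeq2 called 2. Over all 18875 tested genes, 2497 had an unadjusted p under 0.05 there, and DESeq2 called 433 genes. With the replicate number as a block there were 2 before pubertal LPS and 1 before pubertal saline, where 326 and 409 of all tested genes were called. In the pubertal comparisons and the interaction, none was called by edgeR or DESeq2, and 1, 0, 1 and 0 had an unadjusted p under 0.05 after prenatal saline, after prenatal LPS, averaged and for the interaction. Over all tested genes it was 535, 756, 947 and 402 in the same order.

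**Figure D5:**
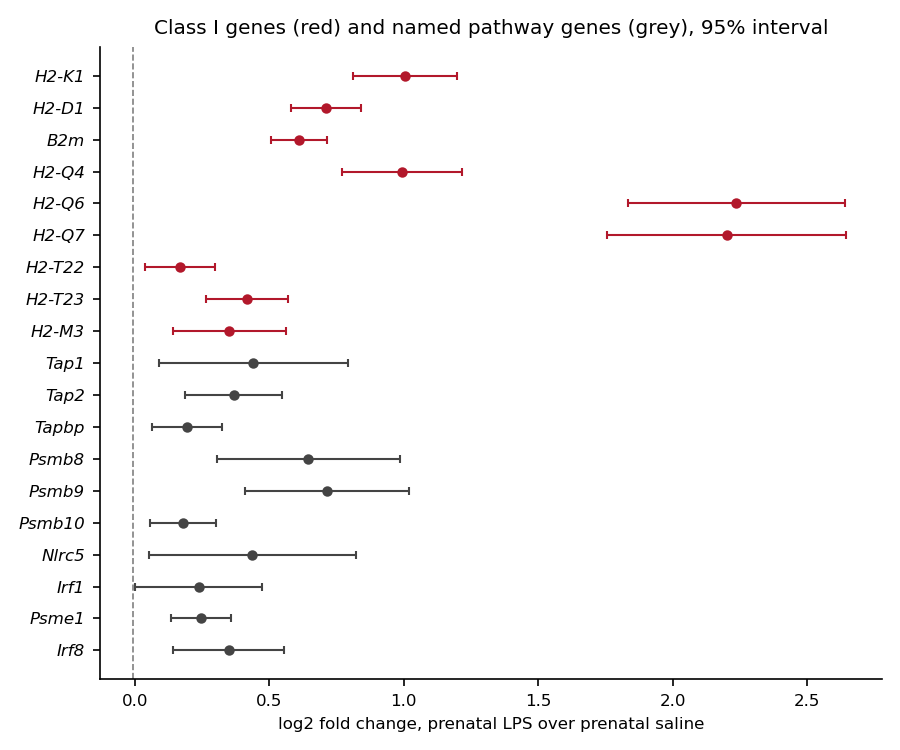
Log2 fold change for prenatal LPS averaged over the pubertal injection (x axis) with its 95% confidence interval, for the 9 genes described here (red) and 10 named genes of the pathway (grey); the dashed line marks the median of all tested genes, -0.01. The grey estimates run from 0.18 for Psmb10 to 0.72 for Psmb9, and the red estimates from 0.17 for H2-T22 to 2.24 for H2-Q6.

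Cells that carry class I were followed by their markers, since in whole brain RNA a larger number of such cells and more RNA in each cell cannot be told apart. The markers were compared averaged over the pubertal injection, where 4.9% of all tested genes were called higher and 2.92% lower. The summed level of 10 microglial markers, all detected in every group, was 242.0 to 295.4 CPM in the prenatal LPS libraries and 216.1 to 319.5 CPM in the prenatal saline libraries, and 0 of 10 were called. Its group medians were 271.7 CPM in LPS-LPS brains and 273.1 CPM in LPS-saline brains, against 231.5 CPM in saline-LPS brains and 237.6 CPM in saline-saline brains. For 10 endothelial markers it was 177.1 to 298.6 CPM against 153.9 to 330.1 CPM, with 0 of 10 called. For 9 markers of border macrophages and monocytes it was 19.1 to 22.9 CPM against 16.1 to 23 CPM, with 0 of 9 called. The ranges of these sums overlapped between the injections, and the medians of the microglial sum were higher in both prenatal LPS groups. Their part in the class I differences was not tested.

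Markers of blood cells were low. T and natural killer cell markers summed to 8.37 to 12.2 CPM in the prenatal LPS libraries and 7.79 to 10.8 CPM in the prenatal saline libraries; Ncr1 had no count in either prenatal saline group and Nkg7 none in saline-saline brains. B cell markers summed to 13.4 to 18.4 CPM against 11.6 to 17.5 CPM, and neutrophil markers to 1.84 to 5.18 CPM against 0.748 to 3.80 CPM. Of these lists, 3 of 9 T and natural killer cell markers, 3 of 5 B cell markers and 4 of 6 neutrophil markers had enough reads to be tested, and none of those was called. Of the other lists, 1 of 7 meningeal fibroblast markers (Dcn), 1 of 7 neuronal markers (Slc17a7) and 1 of 7 astrocyte markers rose, and 1 of 7 astrocyte markers and 2 of 7 oligodendrocyte markers (Cnp and Mal) fell. None was called among markers of the choroid plexus, cerebellar granule cells and the pituitary. The part of these cells in the class I differences was not tested.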

How the data were processed

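The authors deposited raw read counts per gene for 16 whole brain libraries, 1 library per mouse. Per the submitters' processing notes, reads were aligned with STAR 2.5.2b and counted with HTSeq 0.11.2 on GRCm38; the sources used here do not give the strand setting, annotation release or read length. Of 49671 Ensembl identifiers, 49412 matched GENCODE M21. The 5 summary entries of HTSeq were left out of library sizes. Reads outside genes were 8.37% to 11% of gene counts and summary entries together.

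Counts were normalized by TMM, filtered with filterByExpr and fitted with edgeR 4.0.16 (quasi-likelihood, R 4.3.3, limma 3.58.1), with 1 coefficient for each of 4 groups over 16 libraries; p-values were Benjamini-Hochberg adjusted over 18875 genes and the threshold was 0.05. The biological coefficient of variation was 10.4%. The procedure was tested on simulated data. No pair of libraries within a group was a duplicate (chi-square per degree of freedom 5.17 to 35.5).

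The genes and lists were chosen with earlier results of these data known. Named genes were the 9 members, the pathway genes called (at most 4 per list), 8 pathway genes always named (Tap1, Tap2, Tapbp, Psmb8, Psmb9, Psmb10, Nlrc5 and Irf1; another is not reported here), and the 5 genes most correlated with H2-K1 and with B2m. Alternatives were DESeq2 1.42.0, its size factors, no filter, a replicate block, length and GC correction (mgcv 1.9.3), a cerebellar covariate, the Gabra6 split and leaving out each library; the correlations and the heavy chain sums and shares without LPS-LPS replicate 3 were added after seeing the data. The labels number the replicates 1 to 4 in every group. Deviations of same-numbered libraries over 15229 genes correlated at 0.12 to 0.57 between LPS-saline and saline-saline and at 0.28 to 0.36 between LPS-LPS and saline-LPS. Between LPS-LPS and LPS-saline it was 0.15 to 0.37. Every pair was above 0.1, so the block was taken as pairing for these comparisons, although the labels do not say what a number marks. The errors, intervals and adjusted p-values printed here are nevertheless from the fit without the block, and of the blocked fit only calls are given.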

Additional observations from a re-analysis of the deposited data

Results flagged for a closer look

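In 4 of 80 groups of 4 libraries checked, the highest or lowest library lay far from the others for its group (chance gives about 1 in 20). H2-K1 was 38.06 CPM in saline-saline replicate 2, against 30.5 to 31.8 CPM in the other 3. B2m was 81.13 CPM in LPS-LPS replicate 4, against 96.3 to 96.6 CPM in the other 3. In the same library H2-T22 was 12.63 CPM, against 15.7 to 16.0 CPM in the other 3. Psmb9, the immunoproteasome subunit, was 2.118 CPM in saline-saline replicate 2, against 1.15 to 1.30 CPM in the other 3.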

How the results depend on the processing

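Of 675 prenatal log2 fold changes of the 9 genes under alternatives, 0 changed sign; the genes were chosen on these differences, so this and the counts of the 9 below only describe them. Of 900 pubertal and interaction values 0 passed the threshold and 79 changed sign. Among mice given pubertal saline, 0 of the 9 genes were called within the libraries at 1 CPM or more of Gabra6, where 1 saline-saline library remains, and 5 to 7 when a library was left out (5 without saline-saline replicate 4, where H2-Q7 was lost). Before pubertal LPS it was 6 in every such fit, and 4 within the libraries under 1 CPM of Gabra6, where 1 LPS-LPS library remains; a lone library is assumed to vary like the others. Averaged, it was 6 within the libraries under 1 CPM of Gabra6, without H2-T23 and H2-M3, 7 within the others, 7 or 8 when a library was left out and 9 with the cerebellar covariate.

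With the replicate number as a block, 7 of the 9 genes were called in each single prenatal comparison and 8 averaged, and the other pathway genes called were 1 before pubertal saline, 2 before pubertal LPS and 9 averaged. It changed no other call of the 9 genes, those between LPS-LPS and LPS-saline included. Between saline-LPS and saline-saline the same-numbered correlations were 0.21, 0.25, 0.01 and 0.36 for replicates 1 to 4. Because of the low value for replicate 3, the block was not taken as pairing there. That pair had 70.4 CPM of Gabra6 in saline-LPS and 0.277 CPM in saline-saline. Gabra6 was under 1 CPM in every replicate 2 and above it in every replicate 4. The part of cerebellar content in these correlations was not tested. Before pubertal saline, against 0 pathway genes in the edgeR fit, the cerebellar covariate and DESeq2 gave 2 each, and leaving out a library gave 0 to 1. Before pubertal LPS, against 1, length and GC correction gave 0, the cerebellar covariate 3, the libraries under 1 CPM of Gabra6 0 and the others 5, and leaving out a library gave 0 to 1. Averaged, against 5, the covariate gave 9, the libraries under 1 CPM of Gabra6 0 and the others 3, and leaving out a library gave 3 to 9. The cause of these shifts was not tested.

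Over all genes, 34 were called before pubertal saline, 115 before pubertal LPS and 1476 averaged. In the same order it was 409, 326 and 2495 with the block and 433, 411 and 2268 by DESeq2. The cerebellar covariate gave 480, 489 and 2784. With length and GC correction it was lower, at 27, 48 and 618, and with the block added to that correction 130, 95 and 1167. The shares of all genes called therefore shift with the fit. Without LPS-LPS replicate 3 the count before pubertal LPS was 22. Without saline-LPS replicate 1 the count before pubertal saline was 391. With words of 50 bases in place of 100, shared words made up 40.2% of H2-Q7 and 35% of H2-Q6, and with 150 bases 11.6% and 5.99%. H2-Q6 rests on as few as 6 reads a library, where counting error is large.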

Other observations

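Over levels rather than deviations from group means, the genes with the highest Pearson correlation with H2-K1 over the 16 libraries were Trem2 (0.94), Irf7 (0.94), Lgals3bp (0.94), C1qa (0.94) and Spi1 (0.93). With B2m they were Lyz2 (0.96), Ctss (0.95), C1qb (0.94), Rpl28 (0.94) and Fcgr3 (0.94). Trem2, C1qa, C1qb, Spi1, Ctss, Lyz2 and Fcgr3 are known as genes of myeloid cells, which in brain are mostly microglia, and Irf7 is induced by interferon. These correlations hold the group differences by which the class I genes were chosen. The deviations of Trem2 from group means correlated with those of H2-K1 at 0.72, rank 413 of 13855 genes, and those of Ctss with B2m at 0.76, rank 17.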
